A study of Mus musculus with 4 samples.

Results

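A set of 76 genes had higher transcript levels in butyrate-treated than in untreated mouse colonic organoids at 48 h and lower levels at 72 h. The set held genes of the absorptive brush border (*Sis*, *Alpi*, *Enpep*, *Slc10a2*), of goblet cells (*Clca1*, *Tff3*), of the serotonin pathway (*Tph1*), of drug and retinoid metabolism (*Aldh1a1*, *Ugt1a7c*, *Ces1f*) and of families best known from stratified epithelia (*Sprr1a*, *Sprr2h*, *Tgm3*), whose other genes differed in pattern among themselves. Over the goblet cell and enteroendocrine marker lists, the median gene tested was lower with butyrate at both times. The members were selected on these same measured values. A gene entered when its mean over the libraries was at least 2 CPM (counts scaled to a common library total of 1000000) and its log2 fold change, butyrate over untreated with 0.05 CPM added to each value, was 0.5 or more at 48 h and −0.5 or less at 72 h. Of 36144 names in the count table, 11771 passed the filter on the mean, and 76 of these met the whole rule. Because both contrasts were used for the selection, the fold changes at 48 h and 72 h given here describe the members and were not tested.

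The organoids (colonoids) were grown from the colon of a male mouse aged 24 weeks and were used at passage 3. They are epithelial cultures, kept in a medium with EGF, Noggin, R-spondin, the GSK3 inhibitor CHIR99021 and the ROCK inhibitor Y-27632, and all conditions shared that medium. There were 4 conditions with 1 library each: untreated at day 2, 2 mM sodium butyrate for 48 h, untreated at day 3 and 2 mM sodium butyrate for 72 h. Day 2 and day 3 were taken as the partners of 48 h and 72 h. The labels give the genotype as wild type, whereas the methods of the study describe organoids from Hes1-GFP reporter mice, and this difference touched all libraries alike. With 1 library per condition no replicate error exists, so no p-values are given, and the 95% intervals (exact conditional binomial intervals of the ratio of counts) cover counting error only. Total counts were between 20790225 and 24207840 per library, and a floor of 3 counts corresponded to between 0.124 and 0.144 CPM.

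Butyrate is a short-chain fatty acid made by the gut microbiota, a fuel of colonocytes and an inhibitor of histone deacetylases. The colonic epithelium renews itself from crypt stem cells, whose progeny move upwards and mature into absorptive colonocytes, mucus-secreting goblet cells and hormone-secreting enteroendocrine cells. Brush-border hydrolases, transporters and detoxifying enzymes are switched on late in that maturation. In culture, medium with R-spondin and CHIR99021 holds Wnt signalling high and favours crypt-like cells.

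The epithelial label was checked on marker genes. *Epcam*, an epithelial adhesion molecule, was between 1225 and 1444 CPM in the 4 libraries, and *Cdx2*, an intestinal identity factor, was between 181 and 258 CPM. Of 10 stromal markers, the defining collagens *Col1a1*, *Col1a2* and *Col3a1* were at 12 counts or fewer in each library, and the summed level of the list ranged from 14.6 to 16.6 CPM. Of 6 endothelial markers, the summed level was between 3.48 and 5.78 CPM. Of 9 immune markers, *Ptprc*, the pan-leukocyte gene, had 15 counts or fewer in each library, and *Adgre1* had 0. The summed level of the immune list was 8.62 CPM untreated and 56.0 CPM with butyrate at 48 h, and 10.1 and 23.4 CPM at 72 h. Most of that sum was *Cd68*, a lysosomal gene that is not restricted to macrophages, at 5.93, 54.1, 7.29 and 20.2 CPM in the same order. The part of such cells in the results below was not tested.

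Of the 11771 genes, 1353 (11.5%) reached the threshold of 0.5 at 48 h and 694 (5.9%) that of −0.5 at 72 h. The 76 members that met both conditions were 0.646% of the genes tested, 5.62% of the former genes and 10.95% of the latter. The other sign combinations held 566 genes that were higher at both times, 238 that were lower at both times and 46 that were lower at 48 h and higher at 72 h. Without any threshold on the size, 1691 genes (14.4%) were above 0 at 48 h and below 0 at 72 h. For 461 genes (3.92%), both counting intervals lay on these sides of 0, and 68 of the 76 members were among them. For the remaining 8 members the interval at 72 h included 0, and for 1 of them, *Cxxc4*, so did the interval at 48 h. Both intervals of 22 members lay beyond the thresholds themselves.

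**Figure D1:**
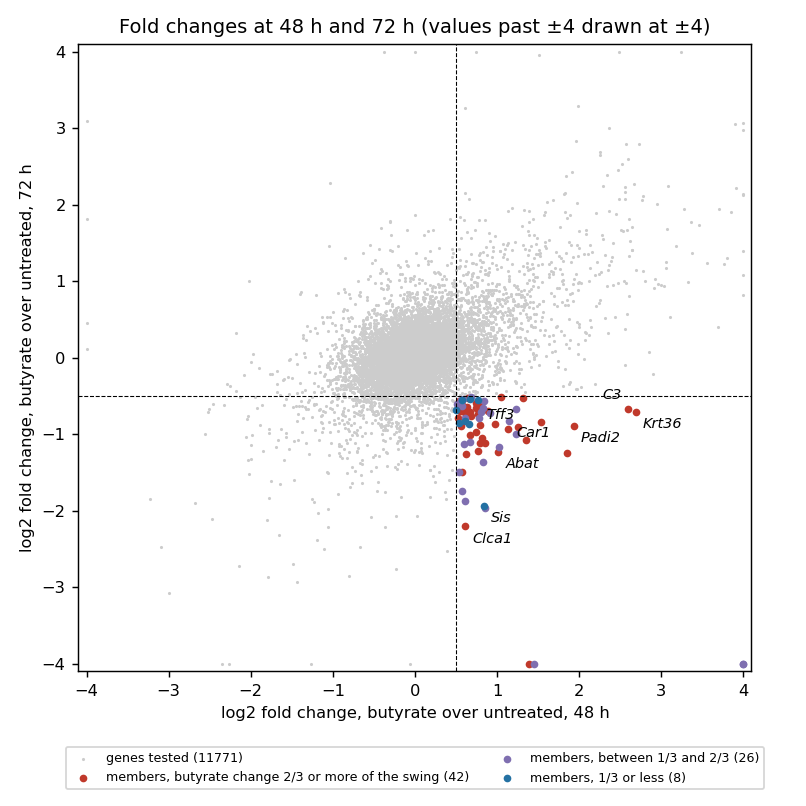
Log2 fold change of butyrate over untreated at 48 h (x axis) and at 72 h (y axis) for 11771 genes in grey and the 76 members in colour. Dashed lines mark the thresholds of the rule, colours give the share of the swing that came from the butyrate-treated cultures, and values past ±4 are drawn at ±4. The members fill the lower right corner, and 566 genes lie beyond 0.5 at both times in the upper right.

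At 48 h the log2 fold change of the median member was 0.75, and at 72 h it was −0.79, beside −0.02 and 0.05 over all genes tested. With the values of libraries at 0 counts replaced by the floor of 3 counts, the medians stayed at 0.75 and −0.79. The change was at least 2-fold at 48 h for 19 members, at 72 h for 24 and at both times for 8. It was larger at 48 h for 33 members and larger at 72 h for 43. In counts the set was mostly modest, with a mean of under 5 CPM for 32 members, 5 to 50 CPM for 32 and 50 CPM or more for 12. Summed over the members, the level at 48 h was 2750 CPM untreated and 5045 CPM with butyrate, and at 72 h it was 4377 and 2407 CPM. *Car1* alone made up 925, 2045, 1488 and 839 CPM of these sums, and without it the sums were 1825, 3000, 2890 and 1568 CPM. The sum in the untreated library at 72 h was therefore close to that in the butyrate library at 48 h, and the butyrate library at 72 h was the lowest.

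The brush border is the carpet of microvilli through which absorptive cells digest and take up nutrients. Of 22 brush border genes tested, 3 were members (13.6%, beside 0.646% of all genes tested). The median log2 fold changes over the 22 were 0.09 at 48 h and −0.25 at 72 h. *Sis* (chr3:72888557-72967863), the sucrase-isomaltase that cleaves disaccharides, was at 19.6 CPM untreated and 35.0 CPM with butyrate at 48 h, and at 99.96 and 26.1 CPM at 72 h. Its untreated library at 72 h stood far above the other 3, and the log2 fold changes were 0.84 (0.67 to 1.01) and −1.93 (−2.07 to −1.80). *Enpep*, the aminopeptidase A of the microvillus membrane, was at 11.6 and 20.8 CPM at 48 h and at 26.6 and 10.3 CPM at 72 h, which gave 0.83 (0.61 to 1.06) and −1.37 (−1.60 to −1.15). *Alpi*, intestinal alkaline phosphatase, was at 16.5 and 24.5 CPM at 48 h and at 25.2 and 8.95 CPM at 72 h. Its log2 fold changes were 0.57 (0.38 to 0.77) and −1.49 (−1.74 to −1.26), so that, as for *Sis* and *Enpep*, the difference was larger at 72 h. In bulk RNA, fewer cells of a type and less RNA per cell cannot be told apart, which holds for every cell type marker named here.

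Several solute carriers were members, none of them on a gene list. *Slc10a2*, the apical sodium-dependent bile acid transporter, was at 39.8 and 78.4 CPM at 48 h and at 42.9 and 23.6 CPM at 72 h. Here the untreated libraries hardly differed, and the butyrate libraries lay on either side of them, with log2 fold changes of 0.98 (0.86 to 1.10) and −0.86 (−1.02 to −0.70). *Slc13a2*, a citrate and dicarboxylate transporter, was at 5.24 and 9.54 CPM at 48 h and at 11.7 and 2.98 CPM at 72 h, or 0.86 (0.53 to 1.20) and −1.96 (−2.40 to −1.58). *Slc6a7*, a proline transporter, was at 2.97 and 5.16 CPM at 48 h and at 3.77 and 2.02 CPM at 72 h, or 0.79 (0.35 to 1.26) and −0.89 (−1.47 to −0.36). *Slc2a6*, a facilitative sugar transporter of the GLUT family, was at 3.01 and 6.65 CPM at 48 h and at 2.80 and 1.44 CPM at 72 h. It was highest in the butyrate library at 48 h and lowest in that at 72 h, with log2 fold changes of 1.13 (0.72 to 1.58) and −0.93 (−1.63 to −0.31).

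*Car1* (chr3:14766216-14808368), the cytosolic carbonic anhydrase of colonocytes, collected the most counts in the set, with 19941 and 49510 at 48 h and 35077 and 17453 at 72 h. In CPM this gave log2 fold changes of 1.15 (1.12 to 1.17) and −0.83 (−0.85 to −0.80), and the untreated and the butyrate-treated cultures crossed. *Creb3l3*, a membrane-bound transcription factor of enterocytes and hepatocytes, was at 1.39 and 3.39 CPM at 48 h and at 2.21 and 1.15 CPM at 72 h, or 1.25 (0.66 to 1.94) and −0.91 (−1.70 to −0.21). The following genes were named after their values were seen. *Tmigd1*, an adhesion protein of the microvilli, was at 26.0 and 37.5 CPM at 48 h and at 48.7 and 17.2 CPM at 72 h. *Aoc1*, the diamine oxidase that degrades histamine, and *Dpep1*, a membrane dipeptidase, had values of 0.63 and 0.67 on the log2 scale at 48 h, followed by −1.26 and −0.71 at 72 h. For both, the butyrate library was the highest of the 4 at 48 h and the lowest at 72 h.

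Goblet cells secrete mucus, trefoil peptides and the mucus-processing protease CLCA1. *Clca1* was at 66.2 CPM untreated and 101.2 CPM with butyrate at 48 h, and at 102 and 22.0 CPM at 72 h. The log2 fold change of 0.61 (0.52 to 0.71) at 48 h was smaller than that of −2.20 (−2.35 to −2.06) at 72 h. *Tff3*, the intestinal trefoil factor, was at 163 and 280 CPM at 48 h and at 208 and 138 CPM at 72 h, or 0.78 (0.72 to 0.84) and −0.59 (−0.66 to −0.53). Both thus crossed between the times, and they were the only members among 16 goblet cell genes tested (12.5%, beside 0.646% of all genes tested). In that list 4 genes were at 0.5 or more at 48 h and 9 at −0.5 or less at 72 h, beside 11.5% and 5.9% of all genes tested. The median over that list was −0.24 at 48 h and −0.67 at 72 h. *Muc2*, the major secreted mucin, was lower with butyrate at both times, with 3313 and 2370 CPM at 48 h and 5130 and 2916 CPM at 72 h.

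Enteroendocrine cells release hormones and serotonin. *Tph1*, the rate-limiting enzyme of serotonin synthesis outside the brain, was at 3.85 and 9.09 CPM at 48 h and at 6.87 and 3.42 CPM at 72 h. The log2 fold changes were 1.23 (0.87 to 1.62) and −0.998 (−1.43 to −0.60). It was the 1 member among 20 enteroendocrine genes tested (5%, beside 0.646% of all genes tested). In that list 2 genes were at 0.5 or more at 48 h and 12 at −0.5 or less at 72 h, beside 11.5% and 5.9% of all genes tested. The medians of the list were −0.32 and −0.64, the former turning to 0.04 over genes with a mean of 10 CPM or more. *Chga*, a granule protein of these cells, had log2 fold changes of 0.07 and −0.98, and the peptide hormone gene *Pyy* had 0.04 and −1.40.

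Drug-metabolising and antioxidant enzymes formed a further group, and all groups by function were made after the values were seen. *Aldh1a1* (chr19:20492715-20643465), a retinaldehyde dehydrogenase, was at 78.4 and 183 CPM at 48 h and at 186 and 117 CPM at 72 h. Its log2 fold changes were 1.23 (1.15 to 1.31) and −0.67 (−0.74 to −0.60), and the untreated culture at 48 h was the one that stood apart. *Aldh1a7* (chr19:20692953-20727562), the adjacent gene of the same family, was at 12.5 and 25.8 CPM at 48 h and at 13.1 and 9.24 CPM at 72 h. In contrast to its neighbour, only the butyrate library at 48 h stood apart from the other 3, and its value of −0.51 at 72 h was the member value closest to the threshold.

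*Ces1f*, a carboxylesterase that hydrolyses ester drugs and lipids, was at 15.02 and 37.4 CPM at 48 h and at 21.04 and 14.6 CPM at 72 h, or 1.31 (1.13 to 1.504) and −0.53 (−0.74 to −0.32). *Cbr3*, a carbonyl reductase, was at 20.2 and 34.8 CPM at 48 h and at 34.0 and 19.7 CPM at 72 h, and its changes of 0.79 (0.62 to 0.96) and −0.79 (−0.96 to −0.61) mirrored each other. *Abcc2*, the apical export pump MRP2 for conjugated drugs, was at 8.07 and 12.1 CPM at 48 h and at 6.404 and 4.14 CPM at 72 h. Its untreated level was lower at 72 h than at 48 h, unlike that of most members, and the log2 fold changes were 0.58 (0.30 to 0.86) and −0.62 (−1.03 to −0.24). *Ugt1a7c*, a UDP-glucuronosyltransferase that conjugates xenobiotics, was at 260.2 and 402 CPM at 48 h and at 332 and 198 CPM at 72 h, or 0.63 (0.58 to 0.67) and −0.75 (−0.80 to −0.69). *Ugt2b5*, of the second such family, was at 10.1 and 17.8 CPM at 48 h and at 11.03 and 5.29 CPM at 72 h, or 0.82 (0.58 to 1.07) and −1.05 (−1.39 to −0.73). *Ugt1a7c* shares its 3′ exons with the other *Ugt1a* genes, so the division of counts among them is uncertain.

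*Gclc*, the catalytic subunit of the enzyme that starts glutathione synthesis, was at 159 and 225 CPM at 48 h and at 312 and 194 CPM at 72 h. The log2 fold change at 48 h, 0.50 (0.44 to 0.57), was the member value closest to that threshold, and the value at 72 h was −0.68 (−0.74 to −0.63). *Gclm*, the modifier subunit of the same enzyme and no member, had 0.49 at 48 h and −0.05 at 72 h. *Akr1c18*, a hydroxysteroid dehydrogenase that inactivates progesterone, had 11 and 36 counts at 48 h and 159 and 3 counts at 72 h. Its untreated library at 72 h held most of the counts, and with so few in the others the log2 fold changes of 1.46 (0.54 to 2.67) and −5.13 (−7.84 to −3.97) were loosely bounded. The 3 counts equal the floor, and with a pseudocount of 1 CPM the values were 0.72 and −2.76. Over the xenobiotic metabolism list, 40 genes were tested and 4 were members, with medians of 0.21 at 48 h and −0.42 at 72 h. In that list 15 genes were at 0.5 or more at 48 h and 19 at −0.5 or less at 72 h, beside 11.5% and 5.9% of all genes tested, and 10.0% of the list were members, beside 0.646%.

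**Figure D2:**
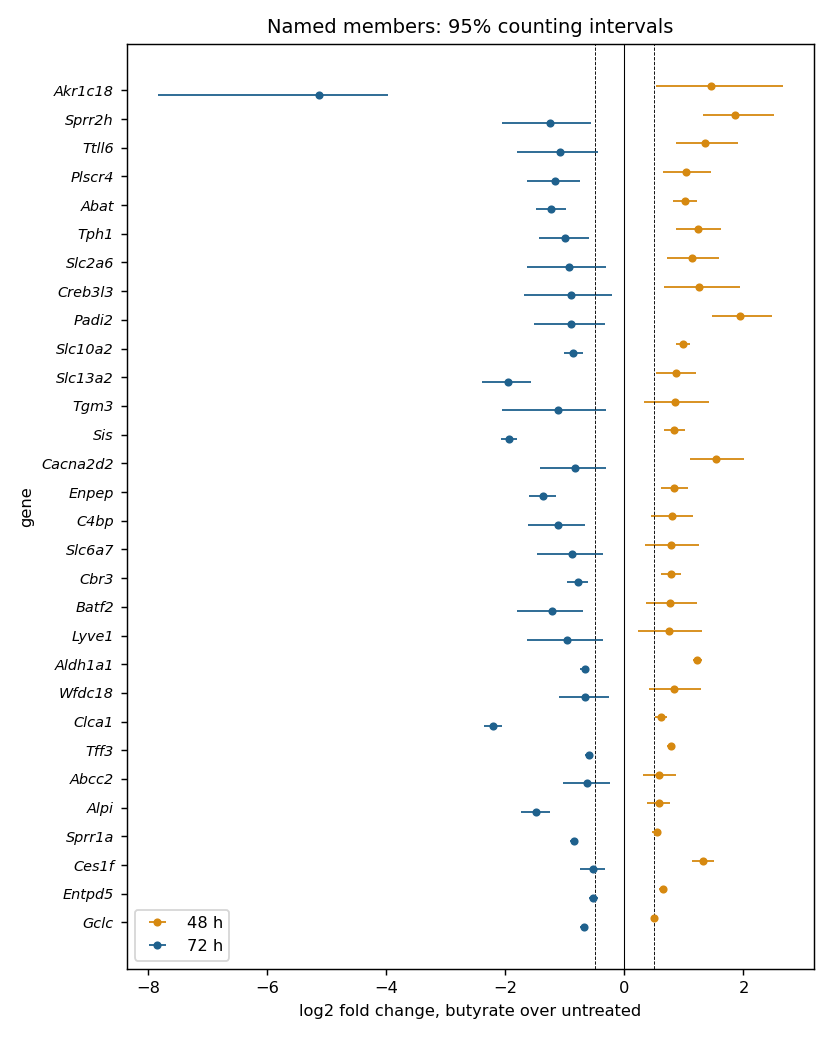
Log2 fold change of butyrate over untreated at 48 h (orange) and 72 h (blue) for the members named by size, list or counts that have no near-identical copy. Bars are 95% counting intervals of 1 library against 1 library, dashed lines are the thresholds. All intervals drawn exclude 0, from the narrow ones of *Aldh1a1*, *Tff3* and *Gclc* to the wide one of *Akr1c18* at 72 h.

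Small proline-rich proteins, transglutaminases, keratins and peptidylarginine deiminases build tough surface layers in stratified epithelia and appear in stressed or regenerating gut. The members of these families were picked after their values were seen, and their relatives divided. *Krt4* had log2 fold changes of 2.25 and 2.65, *Krt23* 1.22 and 0.68, *Krt80* 0.73 and 0.99 and *Krt87* 2.34 and 0.94. *Krt20*, a keratin of mature colonocytes, had 0.31 and −0.69, *Krt10* 0.11 and −0.50, *Krt19* 0.08 and −0.19 and *Krt8* 0.09 and −0.12. Over the 11 keratin genes tested the medians were 0.34 and 0.20. *Sprr2h* had 31 and 129 counts at 48 h and 61 and 22 counts at 72 h, or log2 fold changes of 1.85 (1.32 to 2.51) and −1.25 (−2.06 to −0.57). *Sprr1a*, some distance away on the same chromosome, was at 113 and 164 CPM at 48 h and at 244 and 135 CPM at 72 h, or 0.54 (0.47 to 0.61) and −0.85 (−0.92 to −0.78). The butyrate library at 48 h was the highest for *Sprr2h* and the untreated library at 72 h for *Sprr1a*. *Tgm3*, a transglutaminase that cross-links proteins, was at 2.04 and 3.72 CPM at 48 h and at 1.82 and 0.818 CPM at 72 h, or 0.85 (0.33 to 1.42) and −1.11 (−2.06 to −0.32). *Padi2*, which converts arginine in proteins to citrulline, was at 1.99 and 7.77 CPM at 48 h and at 3.35 and 1.78 CPM at 72 h, or 1.94 (1.48 to 2.48) and −0.89 (−1.52 to −0.33). The largest log2 fold change at 48 h without a near-identical copy was that of *Krt36*, a hair-type keratin named here after its values were seen, with 22 and 166 counts at 48 h and 23 and 12 counts at 72 h. The value of 2.69 at 48 h was well bounded (2.10 to 3.46), but that of −0.71 at 72 h was not (−1.90 to 0.31).

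Some members belong to complement and immune pathways, a group made after the values were seen. The interferon response list held no member among 20 genes tested, with medians of 0.13 at 48 h and 0.19 at 72 h. That of NF-kB targets and chemokines held none among 18, with medians of 0.21 and −0.04. A share of 0.646% of all genes leaves few or none in lists of this size. *C4bp*, a complement inhibitor, was at 4.68 and 8.14 CPM at 48 h and at 5.60 and 2.55 CPM at 72 h, or 0.79 (0.44 to 1.16) and −1.12 (−1.62 to −0.66). *C3*, the central complement component, was named after its values were seen, at 1.62 and 10.0 CPM at 48 h and at 2.16 and 1.35 CPM at 72 h. Its log2 fold change of 2.59 (2.11 to 3.18) at 48 h was large, whereas the interval of −0.66 at 72 h reached 0 (−1.40 to 0.01). *Batf2*, an interferon-inducible transcription factor, was at 3.34 and 5.74 CPM at 48 h and at 4.54 and 1.92 CPM at 72 h, or 0.77 (0.36 to 1.21) and −1.22 (−1.80 to −0.70). *Lyve1*, a hyaluronan receptor best known from lymphatic endothelium, had 47 and 89 counts at 48 h and 72 and 32 counts at 72 h, or 0.74 (0.23 to 1.30) and −0.97 (−1.64 to −0.37). Of the 6 endothelial markers, *Cdh5* and *Emcn* had at most 1 count in each library and *Kdr* and *Tek* at most 12. *Pecam1* had 20 and 37 counts at 48 h and 45 and 23 counts at 72 h, higher and then lower with butyrate like *Lyve1*, and *Vwf* had 43 and 90 counts and then 27 and 62, higher at both times. The part of endothelial cells in the values of *Lyve1* was not tested. *Wfdc18*, a secreted whey acidic protein of the antimicrobial protein list, was at 3.15 and 5.66 CPM at 48 h and at 5.81 and 3.66 CPM at 72 h, or 0.83 (0.41 to 1.29) and −0.66 (−1.09 to −0.25).

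The remaining members named by the rule had diverse roles. *Abat*, the transaminase that breaks down GABA, was at 13.4 and 27.1 CPM at 48 h and at 21.1 and 8.99 CPM at 72 h, or 1.02 (0.82 to 1.22) and −1.23 (−1.48 to −0.99). *Plscr4*, a phospholipid scramblase, was at 3.48 and 7.15 CPM at 48 h and at 6.79 and 2.98 CPM at 72 h, or 1.03 (0.64 to 1.45) and −1.17 (−1.63 to −0.75). *Ttll6*, an enzyme that adds glutamate chains to tubulin, was at 1.99 and 5.16 CPM at 48 h and at 2.80 and 1.30 CPM at 72 h, or 1.35 (0.86 to 1.91) and −1.08 (−1.81 to −0.44). These 3 genes, with *Sprr2h*, *Akr1c18* and 3 genes with near-identical copies, were the 8 members with at least a 2-fold difference at both times. *Cacna2d2*, an auxiliary calcium channel subunit, was at 2.55 and 7.48 CPM at 48 h and at 3.65 and 2.02 CPM at 72 h, or 1.53 (1.11 to 2.01) and −0.84 (−1.42 to −0.30). *Entpd5*, a nucleotide diphosphatase of the endoplasmic reticulum, was at 146 and 229 CPM at 48 h and at 171 and 119 CPM at 72 h, or 0.65 (0.58 to 0.71) and −0.52 (−0.60 to −0.45). *Clca4b*, a CLCA family protein of absorptive cells, was at 15.9 and 25.5 CPM at 48 h and at 18.02 and 8.90 CPM at 72 h, or 0.67 (0.48 to 0.87) and −1.01 (−1.28 to −0.77). Its sequence is nearly identical to that of *Clca4a*, and the sum of both genes, 1.07 and −0.13, did not meet the rule.

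The log2 fold changes of the other 39 members were between 0.52 and 2.69 at 48 h and between −1.87 and −0.51 at 72 h, and for 31 of them both counting intervals excluded 0. Among those named after their values were seen, *Pmp22*, a membrane protein of myelin and of epithelial junctions, was at 61.4 and 110 CPM at 48 h and at 95.6 and 64.5 CPM at 72 h. *Apol10a*, of the apolipoprotein L family, was at 77.6 and 112 CPM at 48 h and at 62.4 and 42.1 CPM at 72 h. *Clec2e*, a C-type lectin of the gut epithelium, was at 33.8 and 50.3 CPM at 48 h and at 46.6 and 30.2 CPM at 72 h. The difference at 48 h was larger for *Pmp22*, with 0.84 (0.75 to 0.94), than for *Apol10a* (0.53, 0.45 to 0.62) and *Clec2e* (0.57, 0.44 to 0.71). The untreated level of *Apol10a* was lower at 72 h while that of *Pmp22* and *Clec2e* was higher. *Slc35d1*, a nucleotide sugar transporter of the endoplasmic reticulum, was at 47.9 and 69.7 CPM at 48 h and at 75.3 and 49.4 CPM at 72 h. *Fa2h*, which hydroxylates the fatty acids of sphingolipids, was at 21.1 and 32.1 CPM at 48 h and at 29.9 and 17.3 CPM at 72 h. *H2-T3*, a non-classical class I histocompatibility gene of the intestinal epithelium, was at 12.0 and 17.6 CPM at 48 h and at 12.1 and 7.41 CPM at 72 h. Its untreated libraries were nearly equal, as for *Slc10a2*.

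At the thresholds the members passed over into non-members without a gap. At 48 h *Gclc* (0.503) and *Stk10* (0.517), a serine/threonine kinase, were just inside, while *Prss30* and *Agt* at 0.498 and 0.489 were just outside. At 72 h *Aldh1a7* (−0.51) and *Dand5* (−0.52) were just inside, and *Mrc1* and *Sgk2* were just outside, with −0.49 and −0.48. For the mean level, *6430550D23Rik* and *Creb3l3* entered with 2.03 CPM each, and *Gm49388* and *Eva1b* with 1.93 CPM each did not.

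The difference between the 2 fold changes of a gene, here called its swing, equals the change of the untreated culture from 48 h to 72 h minus that of the butyrate-treated culture. The rule fixed the size of the swing at 1 or more on the log2 scale but not how it divided between the cultures. The median log2 change from 48 h to 72 h over the members was 0.50 in the untreated and −1.23 in the butyrate-treated culture. Over all genes tested, the medians of these changes were −0.08 and −0.04. The untreated change was above 0 for 68 members (89.5%), beside 34.8% of all genes tested. The butyrate change was below 0 for 74 (97.4%), beside 54.7% of all genes tested, and both held for 66 members. A swing of 1 or more favours these signs, so the counts partly restate the selection. The counting interval of the untreated change lay above 0 for 47 members and below 0 for 3, and that of the butyrate change lay below 0 for 71 and above 0 for 0.

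By the share of the swing, the butyrate-treated cultures carried 2/3 or more in 42 members. In 26 members the cultures shared it, and in 8 the butyrate share was 1/3 or less. *Slc10a2* was of the first kind, with log2 changes from 48 h to 72 h of 0.11 untreated and −1.73 with butyrate. *Car1* was of the shared kind, with 0.69 and −1.28, and so was *Enpep* (1.19 and −1.01). *Sis* was of the third kind, with 2.35 untreated and −0.42 with butyrate. *Gclc* (0.97 and −0.22) and *Sprr1a* (1.11 and −0.28) resembled *Sis*. *Timp3*, an inhibitor of matrix metalloproteinases named after its values were seen, changed by 1.24 untreated and 0.03 with butyrate, so that its lower level at 72 h was relative to the untreated culture alone. In the 3 members with an untreated interval below 0, *Abcc2*, *Apol10a* and the pseudogene *Rps13-ps2*, both cultures were lower at 72 h.

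**Figure D3:**
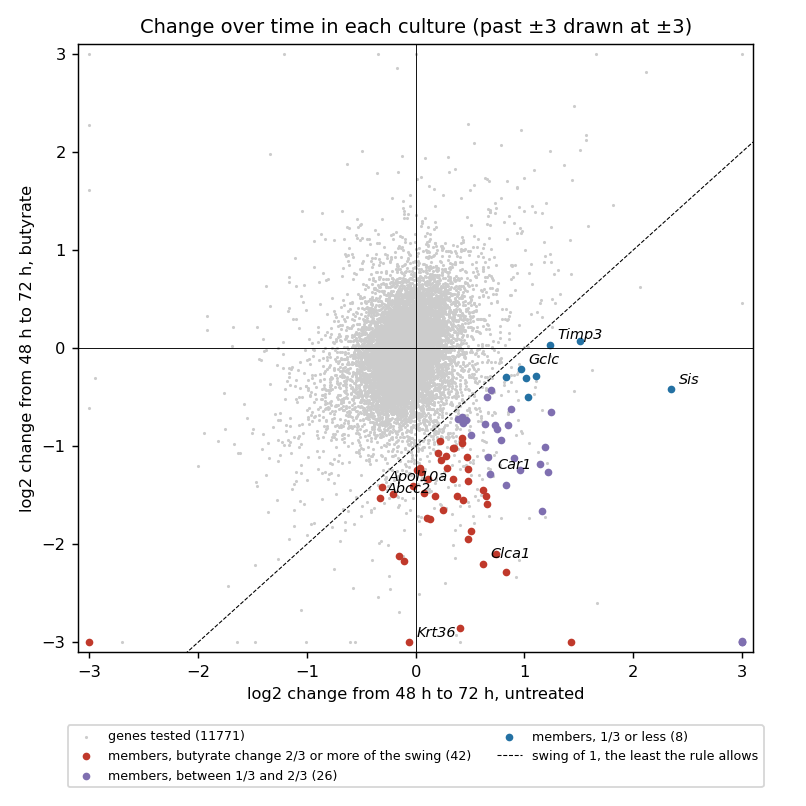
Log2 change from 48 h to 72 h in the untreated (x axis) and in the butyrate-treated cultures (y axis), for 11771 genes in grey and the 76 members coloured by the share of the swing. The dashed line marks a swing of 1, the least the rule allows, and values past ±3 are drawn at ±3. Most members lie right of and below the origin, with *Sis* and *Timp3* near the horizontal and *Slc10a2*-like genes near the vertical axis.

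The rule leaves only the butyrate library at 48 h or the untreated library at 72 h as the highest of a member, and only the other 2 as the lowest, so the order of the libraries restates the selected values. The butyrate library at 48 h was the highest for 53 members and the untreated library at 72 h for 23. The butyrate library at 72 h was the lowest for 59 members and the untreated library at 48 h for 17. The most frequent order, in 49 members, ran from butyrate at 48 h as the highest to butyrate at 72 h as the lowest.

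**Figure D4:**
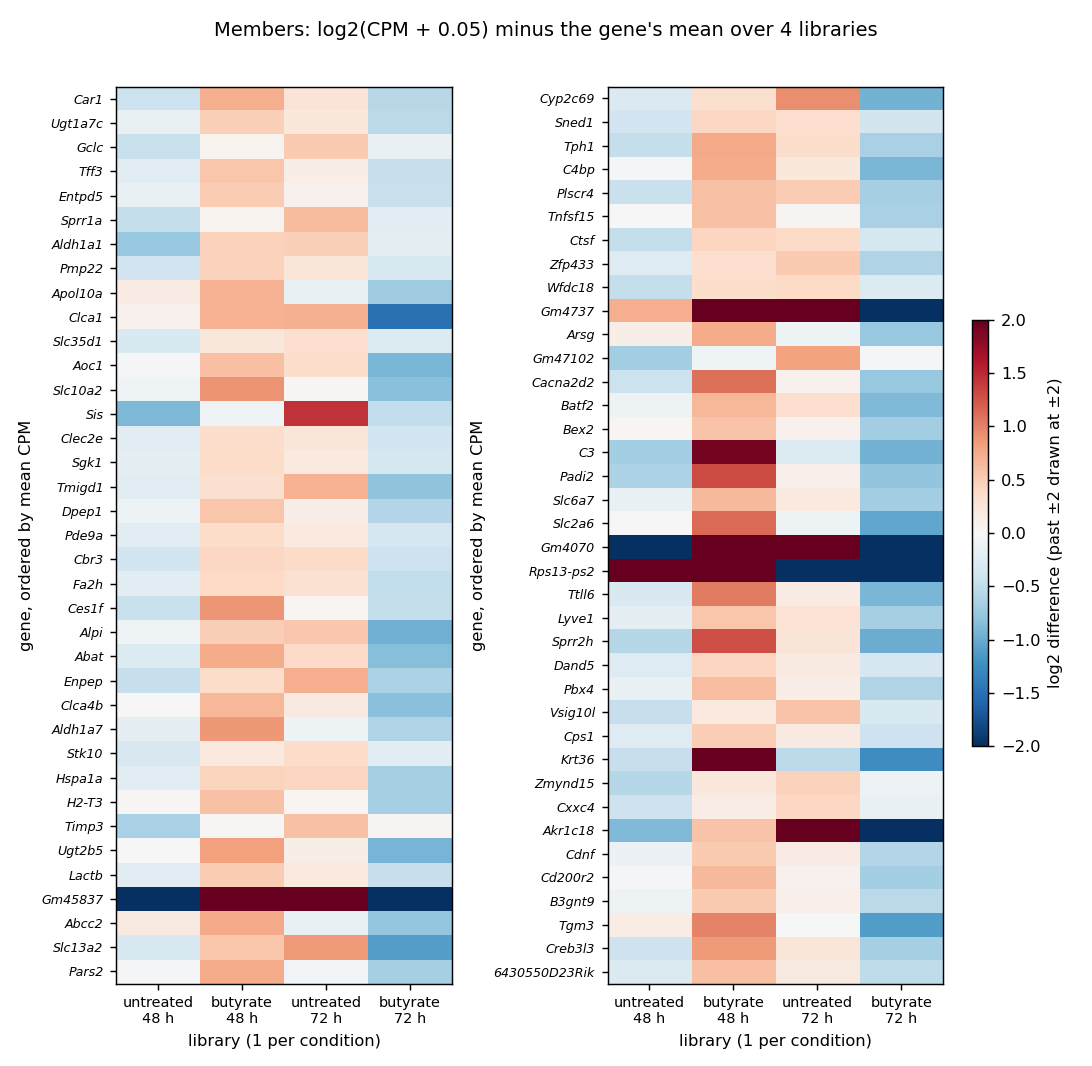
Each row is 1 of 75 members, ordered by mean CPM, and each column is 1 library. Colour gives log2(CPM + 0.05) minus the mean of that gene over the 4 libraries, with values past ±2 drawn at ±2. The second column (butyrate, 48 h) and the third (untreated, 72 h) are mostly red and the last (butyrate, 72 h) mostly blue.

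The mean of the untreated and butyrate changes from 48 h to 72 h is not fixed by the rule, since the swing is their difference. It comes from the same 4 values as the selection, however, and is not independent of it, so it is given as a description. Its median was −0.35 over the 76 members, and it was above 0 in 16 of them (21.1%). Over all genes tested the median was −0.07, and 39.2% of genes were above 0. The median was −0.26 over the genes higher at both times, 0.04 over those lower at both times and 0.15 over those lower and then higher. Averaged over both treatments, most members were lower at 72 h than at 48 h, and genes higher with butyrate at both times were also below the median of all genes. The 16 members above 0 included *Sis*, *Enpep*, *Aldh1a1*, *Gclc* and *Sprr1a*.

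Of the 32 marker and pathway lists, 8 held a member and 24 held none, and 14 members were on a list. Members were 0.646% of all genes tested and 13.6% of the brush border genes. Shares that rested on 1 member included 4.76% (colonocyte), 3.23% (ion and water transport), 3.70% (late surface epithelium) and 6.25% (antimicrobial). Among 22 brush border genes tested, 3 were members (*Alpi*, *Enpep*, *Sis*), 4 were at 0.5 or more at 48 h and 7 at −0.5 or less at 72 h, with medians of 0.09 and −0.25. Among 21 colonocyte genes, *Car1* was the 1 member, 7 and 7 passed these values, and the medians were 0.17 and −0.32. Over all genes tested, 11.5% and 5.9% passed them. *Slc26a3*, the chloride-bicarbonate exchanger of colonocytes and no member, stood at 1.29 on the log2 fold scale at 48 h and at −0.14 at 72 h. The ion and water transport list, with *Clca4b* as its member among 31 genes, had medians of 0.30 and −0.08. The late surface epithelium list, with *Sprr1a* among 27, had 0.22 and −0.05, and the antimicrobial list, with *Wfdc18* among 16, had −0.10 (0.06 over genes with 10 CPM or more) and −0.38. In all, 9 of the 32 lists had a median above 0 at 48 h and below 0 at 72 h, and 5 of these held a member.

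The lists of crypt stem cells, cycling cells and Wnt targets held no member among their genes, where a share of 0.646% of all genes leaves few or none in lists of this size. Over 13 crypt stem cell genes the median log2 fold change was 0.05 at 48 h and 0.48 at 72 h. Over 29 cycling cell genes it was 0.02 and 0.37, and over 18 Wnt target genes 0.11 and 0.59. *Lgr5*, the stem cell receptor for R-spondin, was at 342 and 179 CPM at 48 h and at 217 and 388 CPM at 72 h. It was lower with butyrate at 48 h and higher at 72 h, but it was the 1 gene of the 13 at −0.5 or less at 48 h, so it does not stand for the list. No test of the relation between these lists and the members was made.

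Many relatives of the members kept another pattern, and others shared it. In the *Sprr* family, *Sprr2a1*, *Sprr2a2* and *Sprr2a3* differed by 0.78, 0.998 and 0.81 on the log2 scale at 48 h and by 0.04, 0.59 and 0.43 at 72 h. In the carbonic anhydrase family, *Car2* had 0.89 and 0.32, and *Car4* 1.88 and −0.34. *Tgm2*, the tissue transglutaminase, had 1.39 and 1.91, against 0.85 and −1.11 for *Tgm3*. *Bex1* had 2.37 and 3.00 whereas the member *Bex2*, named after its values were seen, had 0.53 and −0.79. Among esterases, *Ces1g* was close to the rule with 1.97 and −0.41, and *Ces2a* was lower at both times, with −1.18 and −2.03. In the *Akr1* family, 6 of the 9 relatives of *Akr1c18* were above 0 at 48 h and below 0 at 72 h, among them *Akr1c14* (0.37 and −1.75) and *Akr1c19* (0.40 and −1.27). This held for 0 of 3 relatives in the *Slc10a* family, for 0 of 2 each in the *Tgm* and *Bex* families and for 4 of 10 in the *Krt* family. It held for 1 of 4 in the *Ugt*, 1 of 4 in the *Clca*, 3 of 7 in the *Abcc*, 3 of 8 in the *Car*, 1 of 3 in the *Cbr* and 1 of 3 in the *Cyp2c* family. Over all 19 families with a relative tested, it held for 24 of 71 relatives (33.8%), beside 14.4% of all genes tested. The families were taken because they hold a member. Some of these families have closely similar sequences, so the split of counts among relatives is uncertain.

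For 12 members, a transcript of another gene matched the member's own at 95% identity or more over at least 50% of its length. Pseudoalignment divides reads between such copies, and a value of 0 in a library can come from that division. *Gm4070*, nearly identical to the interferon-inducible *Gvin1*, had 0 and 235 counts at 48 h and 92 and 0 counts at 72 h, at least 69.8-fold higher and then at least 27.0-fold lower with butyrate. The summed counts of both genes, 3749 and 1195 at 48 h and 2702 and 1609 at 72 h, were lower with butyrate at both times, with −1.82 and −0.57. *Gm45837*, whose transcript matched that of the phosphodiesterase gene *Pde2a* over 95.6% of its length, had 0, 318, 534 and 5 counts in the same order, at least 94.4-fold higher at 48 h, and the sum with *Pde2a* gave −0.93 and −0.85. *Gm4737*, a copy of *Ahcy*, which hydrolyses S-adenosylhomocysteine, had 57, 169, 170 and 0 counts, at least 49.97-fold lower at 72 h, and the sum with *Ahcy* gave 0.37 and 0.33. For these 3 genes the sum of the pair did not meet the rule.

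With the closest copy added, the sum met the rule for 4 of the 12 members and did not for 8. It did for *Car1*, whose copy *Gm5843* had 0 counts in every library, for *Ugt1a7c* (0.63 and −0.75), for *Ugt2b5* (0.83 and −1.05) and for *Cyp2c69* (0.61 and −1.88), but in the last 3 the closest copy held few counts and could hardly move the value. In 6 members there was more than 1 such copy. With all copies added, 3 of the 12 met the rule, *Car1*, *Ugt1a7c* (0.56 and −0.58 with 8 copies) and *Ugt2b5*, whereas *Cyp2c69* with its 3 copies gave −0.21 and −1.39. The heat shock gene *Hspa1a* had 0.67 and −1.10 on its own and, summed with *Hspa1b*, 0.64 and −0.37. *Clca4b* summed with *Clca4a* gave 1.07 and −0.13, *Gm47102* with *Gm47476* gave 0.47 and −0.56, and *Zfp433* with *Gm32687* gave −0.58 and −0.20. *Rps13-ps2*, a pseudogene with the sequence of the ribosomal protein gene *Rps13*, had 101 and 168 counts at 48 h but 1 and 0 counts at 72 h, where no fold is given, and the sum gave 0.05 and 0.22. Over the 64 members without such a copy, the medians were 0.76 at 48 h and −0.73 at 72 h, and the median mean change was −0.37.

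**Figure D5:**
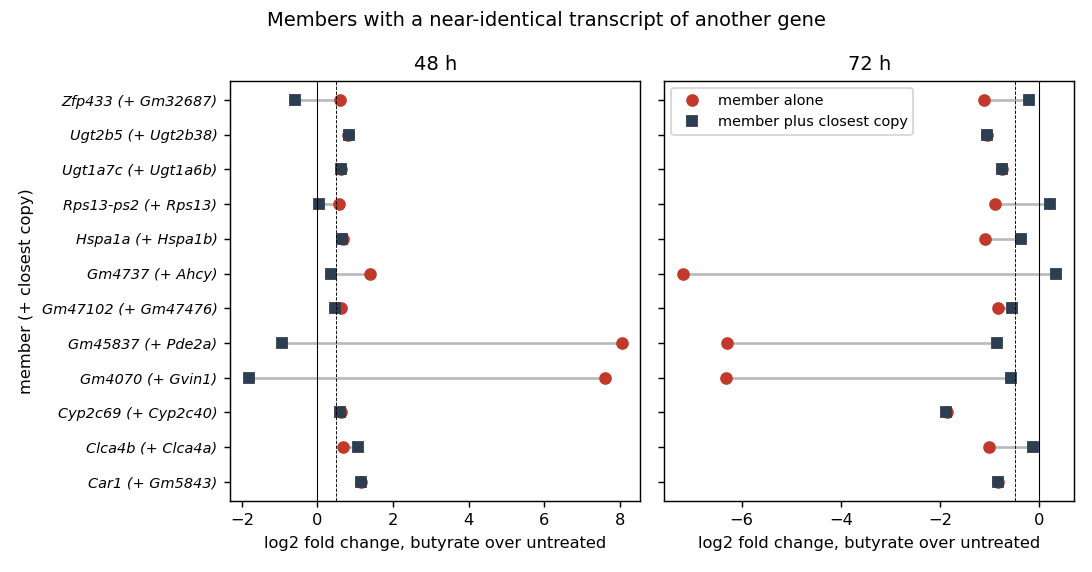
Log2 fold change of butyrate over untreated at 48 h (left) and 72 h (right) for the 12 members with a near-identical copy, alone (red circles) and summed with the copy (dark squares). Dashed lines are the thresholds of the rule. The squares of *Gm4070*, *Gm45837* and *Gm4737* lie far from their circles, and those of *Car1*, *Ugt1a7c*, *Ugt2b5* and *Cyp2c69* coincide with them.

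All members were found in the GENCODE annotation of GRCm38, 74 as protein-coding genes and 2 as processed pseudogenes. They lay on 18 autosomes and the X chromosome, with at most 9 on one chromosome. Members were shorter in exon length than the genes tested, with a median of 3161 against 4470.5 bases, and of similar GC content (49.8% and 49.7%). In 2 cases members were adjacent among the genes tested, *Aldh1a1* next to *Aldh1a7* and *Sprr2h* next to *Sprr1a*. Of 147 neighbouring genes that were no members, 30 (20.4%) were above 0 at 48 h and below 0 at 72 h, beside 14.4% of all genes tested. Some of the 30 were of the same gene family as the adjacent member, such as *Ugt1a6a*, *Akr1c14* and *Ces1g*. The part of such relatives in the share was not tested.

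Promoter sequence was not used by the rule. RefSeq promoters of 300 bases on GRCm38.p6, from 250 bases before to 50 after the start, were matched by symbol for 56 of the 76 members, which had 71 promoters. The letters TATAAA, on either strand, occurred in 21 of the 71 (29.6%), in 7.06% of the promoters of all genes tested and in 13.6% of all promoters in the reference. In the promoters of genes higher at both times the share was 7.62%, in those of genes lower at both times 7.77%, and in those of genes lower and then higher 17.4%. The GC-box letters GGGCGG occurred in 33.8% of member promoters and in 63.0% of those of genes tested (35.7% of all promoters in the reference). The median GC content was 51.3% and 60.7% (52.7% in the reference). The median number of CG dinucleotides per promoter was 5 and 21 (7 in the reference), so base composition differed along with the motifs. The letters TTTATG were found in 14.1% and 6.39%, TGANTCA in 11.3% and 5.09%, CACGTG in 2.82% and 9.95%, CCAAT in 45.1% and 38.0%, CACCC in 54.9% and 62.9% and AGATAAG in 2.82% and 1.79%, each on either strand. These are matches of letters and not bound sites.

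In 6 of the 71 member promoters (8.45%), TATAAA lay on the strand of the gene and began between 20 and 45 bases before the start, the usual place of a TATA box, and this was so in 1.20% of the promoters of genes tested. The share was 6.52% (3 of 46) for genes lower at 48 h and higher at 72 h, 2.91% for genes lower at both times and 2.00% for genes higher at both times, so the members were close to the mirror set. The window was set after the matches were seen. The 100 bases before the start of these 6 are shown 5′ to 3′ on the strand of the gene, with TATAAA in capitals, since TATAAA had the highest ratio of the share in members to the share in genes tested among the 8 motifs. They lie on GRCm38.p6 at chr3:92385585-92385684 (+ strand) for *Sprr2h*, chr3:92485882-92485981 (− strand) for *Sprr1a*, chr2:130012240-130012339 (+ strand) for *Tgm3*, chr11:76902059-76902158 (+ strand) for *Tmigd1*, chr11:83708904-83709003 (+ strand) for *Wfdc18* and chr10:21992123-21992222 (+ strand) for *Sgk1*. The motif began 29, 43, 28, 29, 31 and 28 bases before the start, in the same order.
Sprr2h: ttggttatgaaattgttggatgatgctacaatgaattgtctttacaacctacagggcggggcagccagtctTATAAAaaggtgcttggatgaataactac
Sprr1a: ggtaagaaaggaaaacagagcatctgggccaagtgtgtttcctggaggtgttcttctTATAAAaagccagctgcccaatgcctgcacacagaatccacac
Tgm3: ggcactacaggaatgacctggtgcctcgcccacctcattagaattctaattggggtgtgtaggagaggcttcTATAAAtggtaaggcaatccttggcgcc
Tmigd1: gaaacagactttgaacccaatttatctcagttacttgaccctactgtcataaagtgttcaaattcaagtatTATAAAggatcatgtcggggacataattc
Wfdc18: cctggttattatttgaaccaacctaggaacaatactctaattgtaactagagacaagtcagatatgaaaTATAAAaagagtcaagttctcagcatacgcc
Sgk1: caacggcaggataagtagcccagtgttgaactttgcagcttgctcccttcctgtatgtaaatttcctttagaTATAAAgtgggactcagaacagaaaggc

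These sequences belong to *Sprr2h*, *Sprr1a* and *Tgm3* of the families known from stratified epithelia, to *Tmigd1* of the brush border, to the secreted *Wfdc18* and to *Sgk1*, the glucocorticoid-induced kinase that stimulates epithelial sodium uptake. *Sgk1* was named after its values were seen, with 27.9 and 41.4 CPM at 48 h and 36.5 and 24.96 CPM at 72 h, or 0.57 (0.42 to 0.72) and −0.55 (−0.71 to −0.39). These genes, which the window chose to have the motif at a like distance from the start, differed in the division of the swing, from *Tgm3*, with log2 changes over time of −0.16 untreated and −2.12 with butyrate, to *Sprr1a*, with 1.11 and −0.28.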

How the data were processed

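The authors deposited whole-number counts per gene for the 4 libraries of poly-A RNA, without normalisation or a gene filter. Per the submitters' processing notes, kallisto 0.44.0 and GRCm38.p6 were used, and transcript estimates were summed to genes with tximport, so the counts are rounded estimates that depend on how reads were divided between similar transcripts.

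Counts were divided by the column total and expressed as CPM, and 26 rows with date-like or repeated names were dropped. The members, the 32 gene lists and the alternatives were chosen with earlier results of these data known. The rule for members named with values took the 25 with the largest smaller fold change among those with both intervals clear of 0, those on a list, the 5 with the highest mean CPM and those at each threshold, and any other member named in the text was chosen after its values were seen. Intervals of count ratios were exact (Clopper-Pearson, 95%). They cover counting error only, as PCR copies of a molecule may be counted as separate reads. Near-identical copies were found with blastn 2.17.0 on GENCODE transcripts. Scripts ran in Python 3.11.15 with pandas 2.3.3 and scipy 1.17.1, and the steps were tested on simulated data. DESeq2 1.42.0 size factors, edgeR 4.0.16 TMM factors, other filters, pseudocounts and thresholds, totals without mitochondrial genes and thinned libraries were tried as alternatives. No count model was fitted, since no condition was replicated. 1 member and some marker genes are not reported here.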

Additional observations from a re-analysis of the deposited data

Results flagged for a closer look

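The 76 members had, by selection, log2 fold changes of opposite sign at 48 h and 72 h, and the difference between the times was not tested, as each condition had 1 library. In 3 lists the medians lay on opposite sides of 0, further than the median counting bounds of their genes. The colonocyte list held 1 member, the brush border list 3 and the xenobiotic metabolism list 4, and members were selected for this pattern. The lists themselves were written with earlier results of these data known. The difference between the times was not tested for these either. Medians over the colonocyte genes were 0.17 (48 h) and −0.32 (72 h), those over the brush border genes 0.095 and −0.25, and those over the xenobiotic metabolism genes 0.21 and −0.42.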

How the results depend on the processing

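No paired analysis was possible because a single sample stood for every treatment and time. With DESeq2 size factors or TMM factors 87 genes met the rule, all 76 members among them, with mitochondrial genes left out of the totals 91 did (74 of the members), with libraries thinned to the smallest total 73 (71), with a pseudocount of 1 CPM 57 (57) and without near-identical copies, an alternative added after the data were seen, 64 (64). Summed with all their near-identical copies, also added later, 3 of 12 such members met the rule. The number of members moved to 126 with a mean of at least 1 CPM, 33 with at least 10 CPM, 228 with the count filter of the study (more than 10 counts in at least 2 libraries), 220 at a threshold of 0.3 and 8 at a threshold of 1. In the same order, butyrate-treated cultures carried the swing in 72, 15, 113, 142 and 4 genes, and untreated cultures in 14, 4, 33, 16 and 0. With a pseudocount of 1 CPM untreated cultures carried it in 4. Of 370 recomputed values of single members 361 moved by less than their counting interval, and of 358 list medians 350 did. The 9 member values were those of *Gm4070*, *Gm45837*, *Gm4737* and *Akr1c18* with the larger pseudocount and of *Car1* at 72 h, which was −0.87 with DESeq2 size factors. None of these 370 values, which cover the 37 members chosen by size, list or count, changed sign, and the other members named in the text were not recomputed one by one. Among the lists with a member, the medians at 48 h of the enteroendocrine and antimicrobial lists did, to 0.04 and 0.06 with a mean of at least 10 CPM. The stromal list, whose genes were all below 10 CPM, gave no value at that filter. Low counts, which many members had, leave wide intervals, and the missing replicates leave the spread between cultures unknown.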
